A study of Mus musculus with 17 samples.

Results

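The genes described here are the peroxisome proliferator-activated receptors (PPARs) Ppara, Ppard and Pparg, the retinoid X receptors (RXRs) Rxra and Rxrb, and 4 proteins that work with them, Ppargc1a, Ppargc1b, Ncor1 and Med1. They were taken by gene symbol, and all 9 were found among the 31245 genes of the table and among the 26946 genes tested. Lung RNA of 17 mice was sequenced after 14 weeks on water with perfluorooctanoic acid (PFOA, labelled Hi-PFOA), a long-chain perfluoroalkyl acid, at 6.2 μg/mL, or on vehicle water. The drinking water of all mice contained 0.5% sucrose. The mice were wild type (WT), PPARα null (KO) or humanized PPARα (KI), which carry the human receptor. Each of the 6 groups of genotype and exposure had 3 mice, except WT vehicle with 2.

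All mice received a custom diet modelled on human food from 6 weeks of age. WT mice were Sv/129 animals bought from a supplier, and KO and KI mice were bred from PPARα null and human PPARα heterozygous pairs. Genotype and source colony therefore cannot be told apart in any comparison of KO or KI with WT. The 6 KO mice were all female, while WT had 2 females and 3 males and KI had 4 females and 2 males. KO PFOA libraries all carried the same i5 sequencing index, and no KO vehicle library carried it. WT and KO mice were not made from one colony, nothing in the labels ties mice to litters, and p-values measure the spread between mice.

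PPARs are nuclear receptors that bind fatty acids and their derivatives. They bind DNA as pairs with an RXR, the shared partner of many nuclear receptors. PPARα drives fatty acid oxidation, PPARγ drives lipid storage and is needed by alveolar macrophages, and PPARδ is expressed in most tissues. Without ligand the pair recruits corepressor complexes that contain NCoR1. With ligand it recruits coactivators, among them PGC-1α and PGC-1β (from Ppargc1a and Ppargc1b) and MED1, the Mediator subunit that contacts nuclear receptors.

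Because the counts of each receptor were estimated by dividing reads among genes, the stretches where the receptors resemble each other most are shown. The 3 PPAR coding sequences were 65.7% to 68.0% identical, and their most alike 60 bases lie in the region that encodes the ligand-binding domain. They are at chr15:85798167-85798226 for Ppara, chr17:28298938-28298997 for Ppard and chr6:115473215-115473274 for Pparg, each on the plus strand of mm10 and inside 1 coding exon. Capitals mark the 46 of 60 bases that all 3 genes share.
Ppara: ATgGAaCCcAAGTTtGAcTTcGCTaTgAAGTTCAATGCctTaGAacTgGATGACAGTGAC
Ppard: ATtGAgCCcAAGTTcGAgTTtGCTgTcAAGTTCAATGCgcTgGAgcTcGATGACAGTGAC
Pparg: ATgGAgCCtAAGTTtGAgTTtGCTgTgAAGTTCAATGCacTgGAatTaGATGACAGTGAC

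The coding sequences of Rxra and Rxrb were 73.4% identical. Their most alike 60 bases shared 56, again in the part that encodes the ligand-binding domain, at chr2:27759596-27759655 and chr17:34037439-34037498 on the plus strand.
Rxra: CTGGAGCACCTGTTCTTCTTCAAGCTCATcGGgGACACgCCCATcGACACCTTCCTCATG
Rxrb: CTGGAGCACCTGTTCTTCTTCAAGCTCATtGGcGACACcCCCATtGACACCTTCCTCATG

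Even there the sequences differed at several bases, and no stretch of 80 bases, the mean read length, was shared with another gene for 8 of the 9 genes. Only Ncor1 shared such stretches, at 52 of its 13872 positions (0.375%). Exons of Ncor1 also overlapped exons of Pigl on the opposite strand by 82 bases and of Ttc19 by 1 base. How the counting used the strand is not given in the sources used here.

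Library depth ranged from 4116116 to 9237385 estimated counts, with a median of 7524817. KO vehicle library 137 and WT vehicle library 122 (numbers name the mice) stood apart by their composition, with 61.3% and 65.3% of counts in protein-coding genes against 74.4% to 80.4% elsewhere. The library labelled KI PFOA 139 went against its label. It lay in the KO range and below the other 5 KI libraries for Ppara (9.08 CPM, counts scaled to library size, against 8.82 to 11.7 in KO and 12.7 to 20.4 in the other KI libraries). The same held for Zfp949, a zinc finger gene chosen after its values were seen (16.9 against 12.2 to 20.8 and 41.6 to 49.3), where WT libraries were at 14.5 to 19.8. For Pdk4, a target of PPARα, it was below both (6.29 CPM against 12.7 to 28.7 in KO and 42.7 to 181 in the other KI libraries). It was kept in its labelled group, and the main KI results are also given without it. The lung's own markers were high in all libraries, with the summed markers of alveolar type 2 cells between 3214 and 10082 CPM. Summed cardiac muscle markers (6 of 6 measured) also varied, from 318 to 7394 CPM.

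Levels are compared between genes as CPM per kb of exon. On this scale the corepressor Ncor1 was highest, with a mean of 36.3 over the 17 libraries. Rxra followed at 13.1, Med1 at 11.9 and Rxrb at 6.30. The PPARs came next, Ppard at 3.56, Ppara at 2.74 and Pparg at 2.53, and the PGC-1 genes last, Ppargc1b at 2.42 and Ppargc1a at 1.66. The third retinoid X receptor, Rxrg, was at 0.307, with 0 to 19 counts per library.

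Several neighbours in this order could not be separated. Ncor1 exceeded Rxra, Med1 exceeded Rxrb, and Rxrb exceeded Ppard in 17 of 17 libraries, and Rxra exceeded Med1 in 14. Pparg exceeded Ppargc1b in 9. The place of Ppara differed by genotype. Ppard exceeded Ppara in 5 of 5 WT and 5 of 6 KO libraries but in 1 of 6 KI libraries. Ppara exceeded Pparg in 0 of 5 WT, 4 of 6 KO and 5 of 6 KI libraries. With the longest transcript as the length, Ppara and Pparg changed places. Ppard has 7514 bases of exon but 3726 in its longest transcript, against 3836 and 3413 for Ppara. On that length the means over all libraries were 7.18 for Ppard and 3.08 for Ppara. The counts by genotype were made with exon length only.

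**Figure D1:**
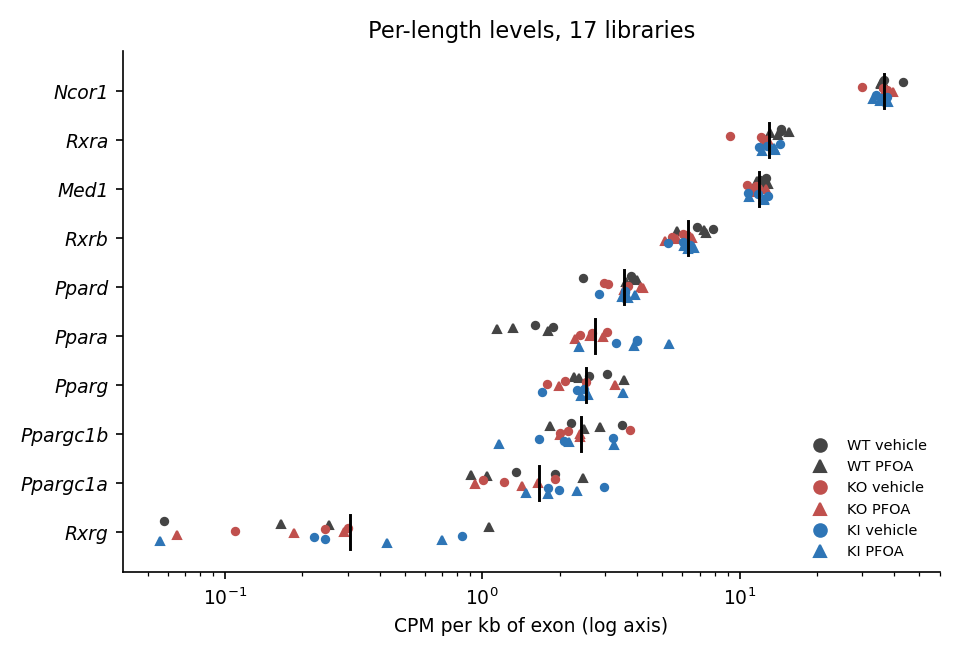
Level of each gene per length (x axis, CPM per kb of exon, log axis) in the 17 libraries, with circles for vehicle, triangles for PFOA, a colour per genotype and a black bar at the mean. Ncor1 is highest at a mean of 36.3 and Rxrg lowest at 0.307, and the WT library with a count of 0 for Rxrg cannot be drawn on the log axis.

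Ppara (chr15:85734983-85802819) encodes the receptor that the genotypes target. It was measured in every library, KO included, with 30 to 179 counts. The count covers all exons of the gene, and the labels do not say which part is altered in KO or replaced in KI. The Ppara count is therefore no check of the knockout, and the share of KI reads that came from the human sequence was not tested.

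Ppara was at 6.13 and 7.21 CPM in the WT vehicle libraries and at 5.07, 4.39 and 6.94 CPM on PFOA. In KO it was at 11.7, 10.3 and 9.17 CPM on vehicle and at 10.1, 11.3 and 8.82 CPM on PFOA. In KI it was at 15.3, 15.3 and 12.7 CPM on vehicle and at 20.4, 14.9 and 9.08 CPM on PFOA, the last being library 139. All WT libraries lay below all KO and all KI libraries. KO and KI overlapped only through library 139.

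The mean level was 5.95 ± 1.21 CPM in WT (SD, n = 5), 10.2 ± 1.14 in KO (SD, n = 6) and 14.6 ± 3.72 in KI (SD, n = 6). Ppara was 1.72-fold higher in KO than in WT and 2.46-fold higher in KI than in WT. Without library 139 the KI mean was 15.7 CPM and the fold 2.64. The low Ppara value of that library was among those that set it apart, so leaving it out had to raise Ppara in KI. Ppara values given without library 139, here and below, are therefore no independent result. Both differences passed edgeR's quasi-likelihood test over all genes with Benjamini-Hochberg adjustment. The log2 difference of KO from WT was 0.78 (SE 0.19, adjusted p = 0.0362), and that of KI from WT was 1.29 (SE 0.19, adjusted p = 0.000577). These comparisons share the WT libraries.

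Ppara was the only one of the 9 genes called in either comparison. Over all genes tested, 1.92% were called in KO against WT and 0.983% in KI against WT. The call in KO lay near the threshold and depended on which libraries were kept. It was lost in 7 of the 17 fits that left out 1 library, those without WT 107, 50 or 56 or KO 145, 52, 154 or 155, with adjusted p of 0.0516 to 0.101 and a log2 difference of 0.69 to 0.81. Among females alone the difference was 0.88 in KO (adjusted p = 0.158) and 1.21 in KI (adjusted p = 0.0587). Without library 139, the difference was 0.78 in KO (adjusted p = 0.0160) and 1.41 in KI (adjusted p = 9.77e-05).

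Between KI and KO, Ppara differed by 0.52 on the log2 scale (SE 0.17, unadjusted p = 0.00657), which did not pass the adjustment over all genes (adjusted p = 0.9997). Without library 139 it was 0.62 (adjusted p = 0.400), with 12.7 to 20.4 CPM in KI and 8.82 to 11.7 in KO. Only 2 genes were called in this comparison (0.00742% of those tested), and none of the 9 was among them. With all libraries, 4.78% of all genes had an unadjusted p under 0.05 with edgeR. The groups did not overlap for 0.141% of all genes and for 0 of the 9.

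**Figure D2:**
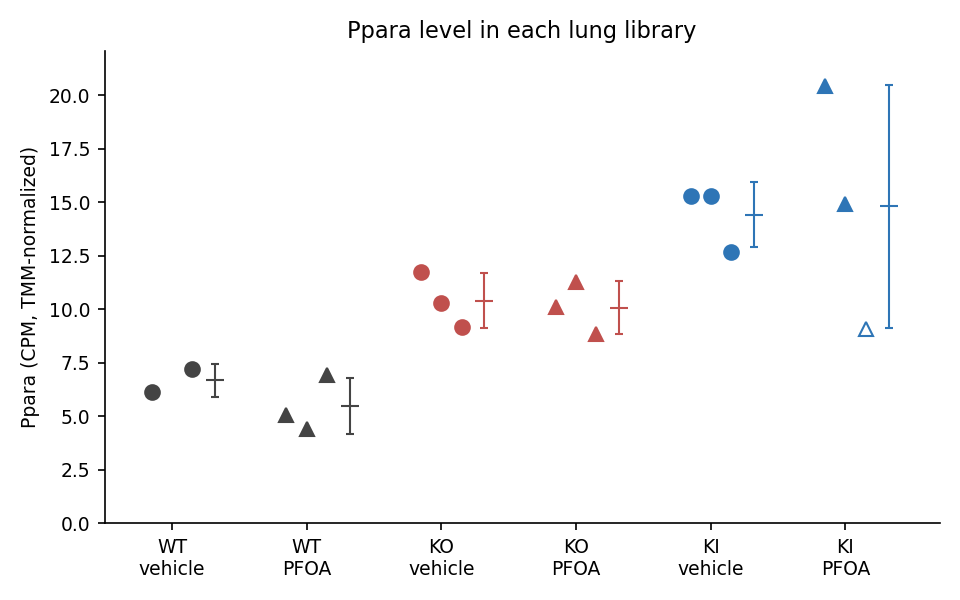
Ppara level (y axis, CPM after TMM normalization) in each library of the 6 groups, with the mean and SD beside the points and library KI PFOA 139 as an open triangle. The 5 WT libraries sit between 4.39 and 7.21, below the 6 KO libraries at 8.82 to 11.7, and 5 of the 6 KI libraries sit at 12.7 to 20.4.

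Ppara is also expressed in heart muscle, and cardiac muscle markers differed between libraries. The highest Ppara value, 20.4 CPM, was in KI PFOA library 57 with summed markers of 6442 CPM, and KI vehicle library 102 had 15.3 CPM with 7394. The highest KO value, 11.7 CPM, was in library 137, which had the highest marker sum of the KO libraries (2145 CPM). KI PFOA library 80 had Ppara at 14.9 CPM with 614 CPM of markers, and WT PFOA library 65 had 6.94 CPM with 4367. The part of heart tissue in the Ppara values was not tested. In this bulk tissue, fewer cells of a type and less RNA per cell cannot be told apart for any of the genes. Relative to its family, Ppara made up 19.8% ± 4.44 of the summed per-length level of the 3 PPAR genes in WT (SD, n = 5), 31.0% ± 4.05 in KO (SD, n = 6) and 38.4% ± 5.25 in KI (SD, n = 6). Without library 139 the KI share was 40.5% ± 1.31 (SD, n = 5). These shares use exon length, depend on that choice, and were not worked out with the longest transcript.

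PFOA was tested against vehicle within each genotype, as 1 effect beside genotype, and as the difference of that effect between genotypes. None of the 9 genes was called in any of these 7 tests with edgeR. In WT, KO and KI the share of all genes called was 0% each time, and for the common effect it was 0.00371%, which is 1 gene. For the 3 differences between genotypes it was also 0%. Within genotypes and in the differences, 0 of the 9 had an unadjusted p under 0.05, and DESeq2 called 0 of the 9 in each of the 7 tests. Over all genes, edgeR gave an unadjusted p under 0.05 for 1981 genes in WT (7.35%), 2639 in KO (9.79%) and 699 in KI (2.59%). For the differences the shares were 7.46% (KO less WT), 4.58% (KI less WT) and 5.42% (KI less KO). At such shares, 0 of 9 is no result particular to these genes. Over all genes, DESeq2 called 9 in WT, 2 in KO and 1 in KI.

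The differences of the PFOA effect between genotypes lay between -0.23 (Ppargc1a, KI less KO, SE 0.50) and 0.44 (Pparg, KI less WT, SE 0.39) on the log2 scale. Their smallest adjusted p was 0.762, for Ncor1 in KO less WT (0.28).

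For Ppara itself the common effect of PFOA was -0.07 on the log2 scale (95% interval -0.37 to 0.24, adjusted p = 0.926). Without library 139 it was 0.01. The KI PFOA libraries spread widely, from 9.08 to 20.4 CPM, against 12.7 to 15.3 CPM in KI vehicle.

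Ppard (chr17:28232700-28301474) had the smallest unadjusted p of the 9 genes for PFOA. It was the PPAR with the highest mean level per length over all libraries, though by exon length not in KI. It was at 28.5 and 18.5 CPM in WT vehicle and at 29.0, 30.1 and 27.2 CPM in WT PFOA. In KO it was at 22.3, 23.2 and 27.6 CPM on vehicle and at 31.1, 31.6 and 26.8 CPM on PFOA. In KI it was at 27.1, 27.0 and 21.4 CPM on vehicle and at 29.5, 26.3 and 27.7 CPM on PFOA. The exposed mean was the higher in each genotype, and the exposed and vehicle libraries overlapped in all 3.

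The common effect on Ppard was 0.24 (SE 0.09, 95% interval 0.04 to 0.43, unadjusted p = 0.0214), which did not pass over all genes (adjusted p = 0.535). In this edgeR test 2228 of all genes (8.27%) had an unadjusted p under 0.05, so such a p is not particular to Ppard. The effect was 0.29 in WT (SE 0.19), 0.29 in KO (SE 0.17) and 0.15 in KI (SE 0.16). Lowest of the vehicle values were WT library 122, KO library 137 and KI library 135, and the first 2 are those with few protein-coding counts. Without library 122 the effect in WT was 0.02 (SE 0.20) and the common effect 0.18, and without both 122 and 137 the common effect was 0.15. Without the other WT vehicle library, 107, the effect in WT was 0.64 and the common effect 0.29. Each of these fits leaves 1 WT vehicle library. By genotype the mean of Ppard was 26.7 ± 4.68 CPM in WT (SD, n = 5), 27.1 ± 3.86 in KO and 26.5 ± 2.72 in KI (SD, n = 6 each).

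Pparg (chr6:115360951-115490399), the PPAR of fat cells and alveolar macrophages, was above Ppara per length in WT, with means of 2.78 and 1.55 CPM per kb. Pparg ranged from 5.06 to 10.5 CPM over all libraries. Its group means were 8.38 CPM in WT vehicle and 8.09 in WT PFOA, 6.32 and 7.63 in KO, and 6.42 and 8.37 in KI. The ranges of groups next to each other in order of mean overlapped. On vehicle, WT (7.70 to 9.06 CPM, 2 libraries) lay above KO (5.27 to 7.46) and KI (5.06 to 7.32). The share of all genes that separate in this way was not worked out. For WT PFOA against WT vehicle, also 3 libraries against 2, it was 22.5%. Over both exposures Pparg did not separate in any genotype comparison, and KO against WT had an adjusted p of 0.696 with edgeR. The common effect of PFOA was 0.22 (95% interval -0.10 to 0.54, adjusted p = 0.735).

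Summed markers of alveolar macrophages (8 of 8 measured) ranged from 102 to 254 CPM in KO vehicle and 289 to 385 in KO PFOA, and from 139 to 210 in KI vehicle and 217 to 337 in KI PFOA. In WT they were 163 to 336 on vehicle and 229 to 384 on PFOA. Their part in the Pparg values was not tested. The highest Pparg values, 10.5 CPM in WT PFOA 65, 10.4 in KI PFOA 57 and 9.70 in KO PFOA 52, were in libraries with summed adipose markers of 63.7, 20.8 and 58.7 CPM, against a lowest value of 0.753 CPM in KO vehicle 149. All 6 adipose markers were measured, and the part of fat tissue in Pparg was not tested either. KI vehicle 102, with the highest adipose sum (89.8 CPM), had Pparg at 7.32 CPM.

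**Figure D3:**
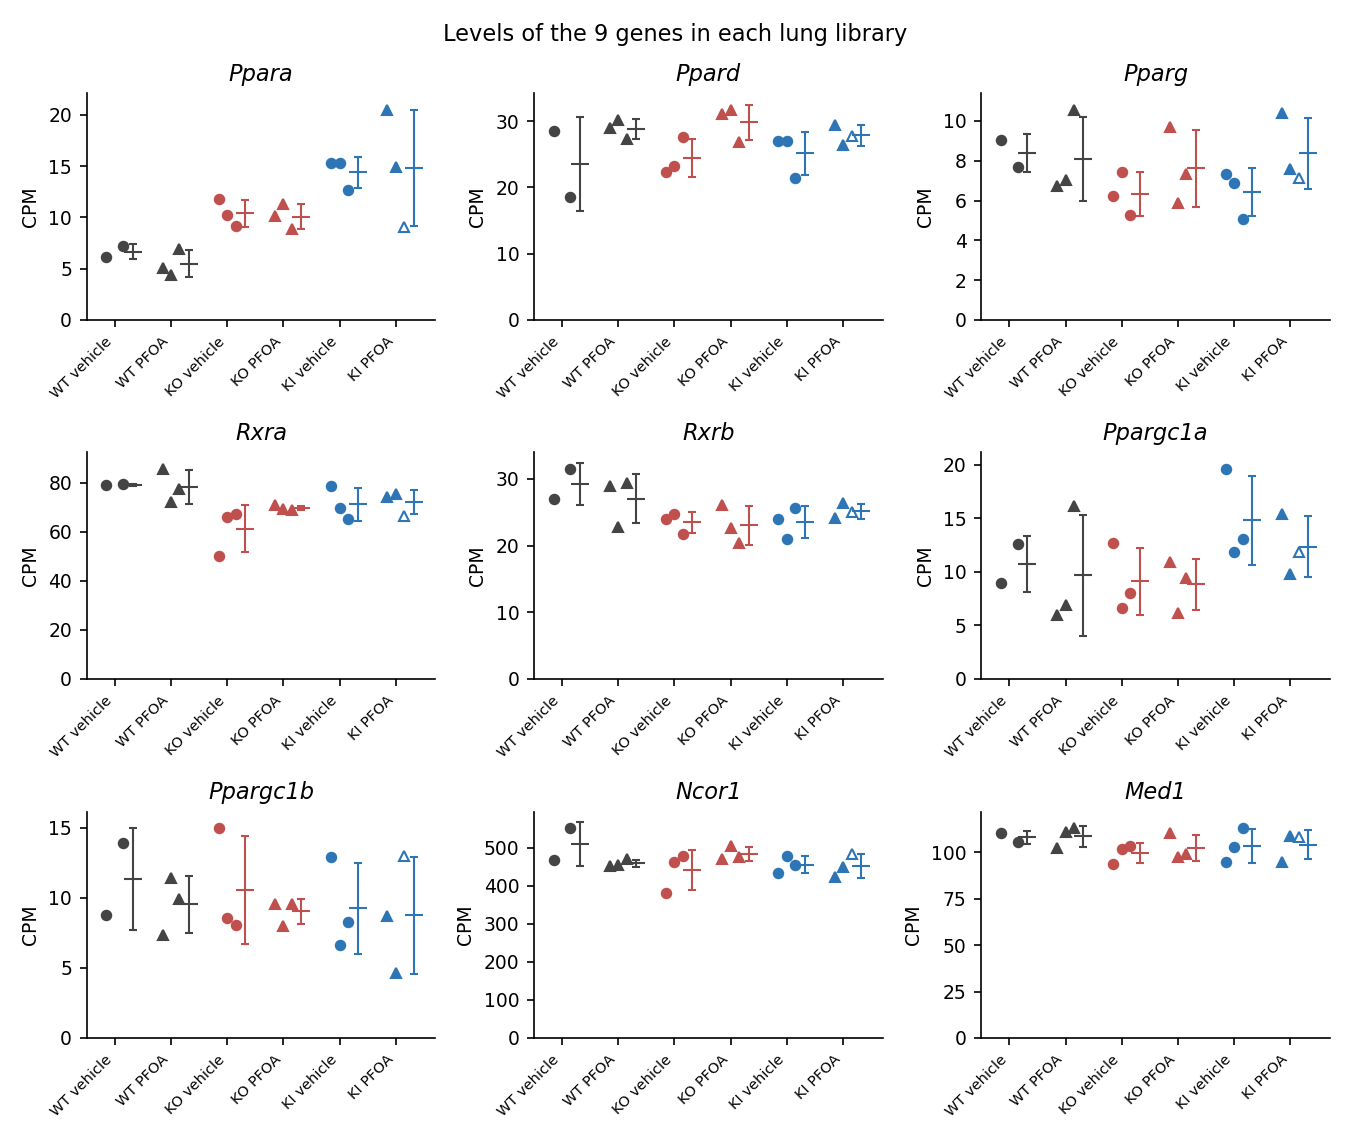
Level of each of the 9 genes (y axes, CPM from 0) in the 6 groups, with circles for vehicle, triangles for PFOA, the mean and SD beside the points, and library KI PFOA 139 open. Ppara separates by genotype, at 4.39 to 7.21 CPM in WT and 8.82 to 20.4 in KO and KI, while exposed and vehicle libraries overlap in every panel except KO for Rxra.

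Rxra (chr2:27676440-27762957) was the main RXR, at 67.5% of the summed per-length level of Rxra and Rxrb on average over the 17 libraries (60.4% to 71.1%). In WT it was at 78.9 and 79.3 CPM on vehicle and at 85.4, 71.9 and 77.2 CPM on PFOA. In KO it was at 50.2, 66.0 and 67.3 CPM on vehicle and at 70.7, 69.2 and 68.9 CPM on PFOA. In KI it ranged from 65.0 to 78.5 CPM. All 6 KO libraries lay below all 5 WT libraries, while KI overlapped with both.

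Rxra was lower in KO than in WT by a log2 difference of -0.26 (SE 0.10, unadjusted p = 0.0141), which did not pass over all genes with edgeR (adjusted p = 0.219, range 0.0739 to 0.553 over the alternatives). An unadjusted p under 0.05 was found for 12.9% of all genes in KO against WT. Groups without overlap were found for 2.76% of all genes in KO against WT, and for 2 of the 9, Ppara and Rxra. In KI against WT they were found for 2.0% of all genes and for Ppara alone. The lowest Rxra value, 50.2 CPM, was in KO vehicle library 137, which had few protein-coding counts.

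Within KO, the 3 PFOA libraries (68.9 to 70.7 CPM) all lay above the 3 vehicle libraries (50.2 to 67.3). Such a separation was seen for 12.8% of all genes in KO, and for 1 of the 9. In WT it was seen for 22.5% of all genes and in KI for 8.23%, and for 0 of the 9 in each. Over all genotypes together the exposed and vehicle libraries did not overlap for 0.0223% of all genes and for 0 of the 9. The log2 effect of PFOA on Rxra over all genotypes was 0.07 (95% interval -0.09 to 0.23, adjusted p = 0.840). In KO the i5 index differed with exposure. The log2 effect on Rxra in KO was 0.18, and 0.06 to 0.25 over the alternatives, among them the fit with the i5 index as a term. The part of the index in the KO separation was not tested apart from that fit.

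Rxrb (chr17:34031812-34038399) had a narrower range, 20.3 to 31.4 CPM. Its mean was 27.9 ± 3.26 CPM in WT (SD, n = 5), 23.3 ± 2.09 in KO and 24.3 ± 1.86 in KI (SD, n = 6 each). The log2 difference of KO from WT was -0.26 (SE 0.11, unadjusted p = 0.0244, adjusted p = 0.282), and the 2 ranges overlapped. In that comparison 12.9% of all genes had an unadjusted p under 0.05. PFOA had a common effect of -0.01 (95% interval -0.19 to 0.18, adjusted p = 0.987).

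Ppargc1a (chr5:51454250-51567726) encodes PGC-1α, a coactivator of PPARs that drives mitochondrial biogenesis and is abundant in heart and brown fat. It was the most variable of the 9 genes within groups, with an SD of 0.480 on the log2 scale. The median gene of like level had 0.290, and 89.2% of 1875 such genes varied less. Ppargc1a was at 8.92 and 12.6 CPM in WT vehicle and at 5.96, 6.87 and 16.2 CPM in WT PFOA. It was at 12.7, 6.61 and 8.04 CPM in KO vehicle and at 10.9, 6.18 and 9.42 CPM in KO PFOA. It was at 19.6, 11.8 and 13.1 CPM in KI vehicle and at 15.4, 9.76 and 11.9 CPM in KI PFOA.

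The 3 highest Ppargc1a values, in KI vehicle 102, WT PFOA 65 and KI PFOA 57, came from the 3 libraries with the most cardiac muscle RNA. Summed cardiac markers were 7394, 4367 and 6442 CPM there. In the other 14 libraries these markers summed to 318 to 2403 CPM and Ppargc1a was at 5.96 to 13.1 CPM. The part of heart tissue in Ppargc1a was not tested.

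Ppargc1a was higher in KI than in KO by 0.61 on the log2 scale (SE 0.24, unadjusted p = 0.0185, adjusted p = 0.9997), with overlapping ranges. Without library 139 it was 0.63 (adjusted p = 0.829). Of all genes, 4.78% had an unadjusted p under 0.05 in KI against KO with all libraries. KI also had the higher cardiac sums, 614 to 7394 CPM against 318 to 2145 in KO. KO had no males, and among females the difference was 0.37 (adjusted p = 1.0). The common effect of PFOA was -0.15 (95% interval -0.56 to 0.27, adjusted p = 0.866).

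Ppargc1b (chr18:61298136-61400431), which encodes PGC-1β, was nearly as variable, with a within-group SD of 0.468 on the log2 scale. It ranged from 4.63 CPM in KI PFOA 80 to 14.97 in KO vehicle 137. Its next highest values were 13.9 CPM in WT vehicle 122, 12.996 in KI PFOA 139 and 12.9 in KI vehicle 102. Libraries 137 and 122 are those with few protein-coding counts. The common effect of PFOA was -0.17 (95% interval -0.57 to 0.23, adjusted p = 0.840), and without these 2 libraries it was 0.03.

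Ncor1 (chr11:62316426-62458541), the corepressor scaffold, and Med1 (chr11:98152154-98193293) were the steadiest of the 9. Their within-group SDs were 0.106 and 0.0972 on the log2 scale, against medians of 0.261 and 0.203 for genes of like level. Ncor1 ranged from 383 CPM in KO vehicle 137 to 552 in WT vehicle 122, and from 424 to 506 in the other 15 libraries. Med1 ranged from 93.5 to 113 CPM. The common effect of PFOA was 0.00 for Ncor1 (95% interval -0.17 to 0.17, adjusted p = 0.999) and 0.02 for Med1 (95% interval -0.12 to 0.16, adjusted p = 0.957). The signs of both turned under DESeq2 and other scaling factors.

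Depth bears on these widths. Ncor1 had a mean of 3406 counts per library, a counting error of 1.71%, and Med1 762 counts, an error of 3.62%. Ppara, Pparg, Ppargc1a and Ppargc1b had means of 54.9 to 78.7 counts and counting errors of 11.3% to 13.5%.

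**Figure D4:**
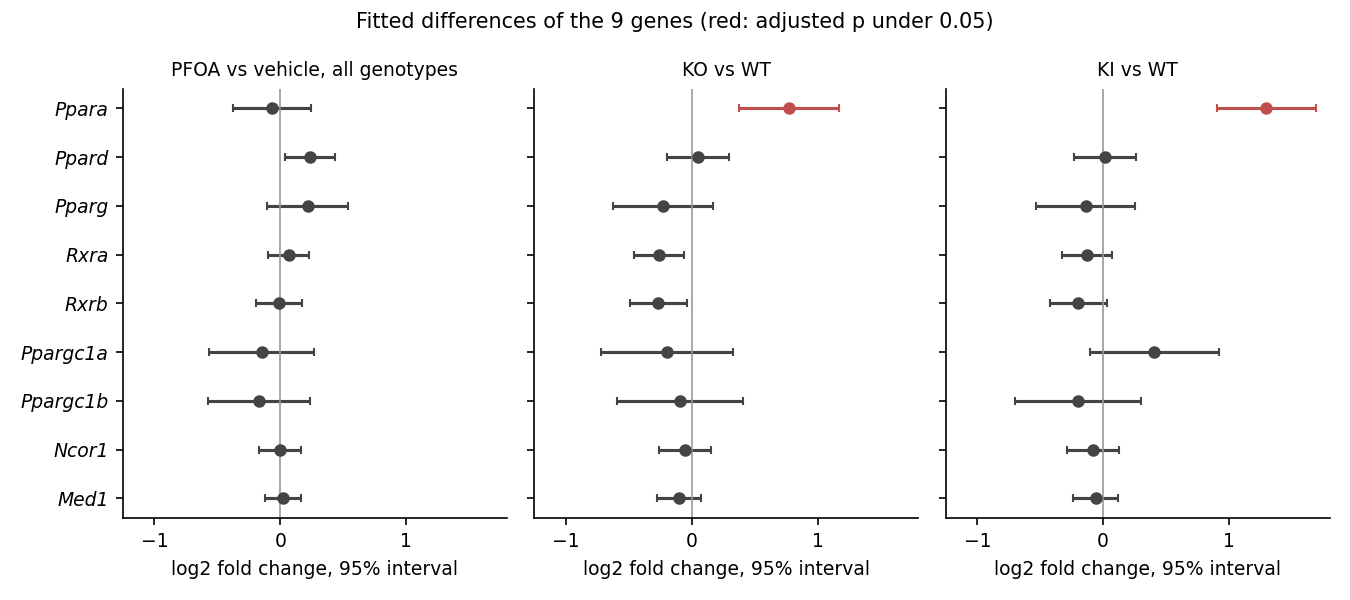
Fitted log2 fold changes of the 9 genes (x axes) with 95% intervals for PFOA against vehicle beside genotype, KO against WT and KI against WT. Only Ppara, at 0.78 in KO and 1.29 in KI, passed the test over all genes, and it is drawn in red.

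The other genes of the pathway were taken from 7 lists of 106 genes in all, of which 100 were tested. The lists hold targets of PPARα (20 tested) and of PPARγ (14), targets and partners of PGC-1 (16) and coactivators (19). They also hold corepressors (10, with Insig2, which is not one), receptors that pair with RXR, with Rxrg (14), and carriers of fatty acids and retinoids (7). In the 7 PFOA tests 0 of these genes were called in either direction with edgeR.

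The median log2 effect of PFOA over all genotypes was 0.32 for PPARγ targets and 0.27 for the carriers. Taken by genotype, the PPARγ targets were at 0.56 (WT), 0.44 (KO) and 0.02 (KI), and the carriers at 0.61, 0.42 and -0.10. Without library 139 the KI medians were 0.09 and 0.08. The difference between genotypes was not tested for these lists. Over all genotypes the median was 0.02 for PPARα targets, 0.09 for PGC-1 targets, 0.03 for coactivators, 0.04 for corepressors and -0.03 for RXR partners. Over all genes tested it was -0.01. Genes with the smallest adjusted p in each list show the sizes involved.

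Among PPARγ targets these were Lpl, lipoprotein lipase, at 0.83 (adjusted p = 0.288) and Scd1, a fatty acid desaturase, at 0.93 (adjusted p = 0.394). Lpl was called by DESeq2, at 0.81 (adjusted p = 0.0112), and in edgeR without library 139, at 0.94 (adjusted p = 0.0143). Scd1 was called without WT vehicle library 107, at 1.22 (adjusted p = 0.0477). Among RXR partners they were Nr4a2 at -0.71 (adjusted p = 0.394) and Thrb, a thyroid hormone receptor, at -0.25 (adjusted p = 0.575). Among coactivators, Lpin1 was at 0.36 and Pprc1, a relative of PGC-1α, at -0.26. In the list of corepressors, Insig2, which is not a nuclear receptor corepressor, was at 0.26. Tbl1xr1, a subunit of the NCoR complex, was at 0.17. The carrier Fabp5 was at 0.43. The PPARα targets Acot1 and Plin5 were at -0.27 and -0.46, and the PGC-1 partners Esrrg and Nrf1 at -0.44 and 0.12. The adjusted p of these last 9 genes was 0.587 to 0.737, and Plin5 and Esrrg were at 0.07 and 0.02 without libraries 122 and 137.

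Between genotypes, the median log2 difference of the 20 PPARα targets was -0.16 in KO against WT, 0.20 in KI against WT and 0.43 in KI against KO, beside 0.02, 0.01 and -0.01 over all genes. Without library 139 these medians were -0.15, 0.30 and 0.52. In that fit Pdk4, a kinase that restrains glucose oxidation, was called in KI against KO at 2.31 (adjusted p = 0.00306), and with library 139 the difference was 2.04 (adjusted p = 0.643). The Pdk4 value of library 139, 6.29 CPM, was among those that set it apart. The Pdk4 call without that library is therefore no independent result. Higher KI medians were not particular to PPARα targets. With all libraries, KI against WT was 0.22 for PPARγ targets, 0.17 for PGC-1 targets and 0.26 for carriers. It was -0.02 for coactivators, -0.004 for corepressors and -0.13 for RXR partners. KI against KO was 0.22 for PPARγ and PGC-1 targets, -0.10 for carriers and 0.01 to 0.03 for the others. Cardiac marker sums reached higher in KI than in KO, and their part in the list medians was not tested. Angptl4, an inhibitor of lipoprotein lipase, was called without library 139 in KO against WT at -0.96 (adjusted p = 0.00818), as was the coactivator Lpin1 at -0.68 (adjusted p = 0.0356).

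Of the RXR partners, Thrb was called in KO against WT at -0.63 (SE 0.14, adjusted p = 0.0190). It was at 24.3 to 34.6 CPM in the 6 KO libraries and 36.5 to 73.7 CPM in the 5 WT libraries. The highest value was in WT vehicle library 122, without which the difference was -0.40 (adjusted p = 0.0649). The call was also lost without KO library 149 or 154 (adjusted p = 0.0511 and 0.0542) and among females alone (adjusted p = 0.359). With sex as a term the difference was -0.49 (adjusted p = 0.202), and with the i5 index as a term -0.50 (adjusted p = 0.327). In the lists of PPARγ targets, PGC-1 targets, coactivators, corepressors and carriers, 0 genes were called between genotypes.

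The genes whose log2 CPM followed Ppara, Pparg and Ppargc1a most closely over the 17 libraries were sought among about 13365 genes with a mean of at least 5 CPM. These correlations are descriptions across libraries that share genotype, depth and tissue composition. For Ppara the closest was Crat, carnitine acetyltransferase, with Pearson's r = 0.88, followed by Hmcn2 at 0.83 and Ccdc28b at 0.83. With the group means removed these were 0.79, 0.58 and 0.33, so for Ccdc28b most of the likeness lay between the groups. For Pparg they were Tecr, a reductase of fatty acid elongation, at 0.81, Cytl1 at 0.78 and Htra3 at 0.78, and 0.84, 0.89 and 0.79 with the group means removed. For Ppargc1a they were Ldb3, a Z-disc protein of striated muscle, Pde4dip and Gsto1, at 0.93 each, and 0.94, 0.92 and 0.93 with the group means removed.

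Among the 9 genes themselves, the largest correlation of log2 CPM over the 17 libraries was 0.50, between Ppara and Ppargc1a, and the lowest was -0.47, between Ppara and Med1. With the group means removed the largest were 0.60 between Pparg and Ppargc1a, 0.59 between Ppargc1a and Ppargc1b, and 0.54 between Ppara and Pparg, which was -0.02 before.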

How the data were processed

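The authors made stranded total RNA libraries from lung, trimmed the reads to a mean of 80 bases, aligned them with STAR 2.6 (mm10, Partek Flow) and estimated counts by expectation-maximization. The submitters' processing notes also name DESeq2 3.5. Estimated counts per gene were deposited unnormalized, and 29.9% of cells are not whole. The annotation release and use of strand are not given in the sources used here.

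Counts were rounded. Genes were tested if their counts summed to 20 or more (26946 genes) with edgeR 4.0.16 (R 4.3.3, TMM, quasi-likelihood), using all 17 libraries. Effects of PFOA within genotypes and their differences came from a model with 1 coefficient per group, the common PFOA effect and genotype comparisons from an additive model. Benjamini-Hochberg adjustment ran over every gene tested, and adjusted p under 0.05 made a call. CPM values are TMM-normalized, and log2 CPM used a prior count of 2. Within-group SDs pool the 6 groups. Positions and lengths are from GENCODE M21 (mm10). A count of 3 is 0.325 to 0.729 CPM, and counting errors cover counting alone. The fits were tested on simulated counts.

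The 9 genes, gene lists and marker lists were chosen with earlier results of these data known. Named beside the 9 were Rxrg, list genes called in any comparison, the 2 genes per list with the smallest adjusted p for the common PFOA effect, and the 3 genes most correlated with Ppara, Pparg and Ppargc1a (none within 100 kb of Ppara). Some results for the lists are not reported here. Genes called only without library 139 were named after their values were seen. Crabp2, Fgf21 and Gyk were not found by symbol, and Cyp4a10, Cyp4a14 and Creb3l3 were under the filter. Alternatives were DESeq2 1.42.0, RLE and upper-quartile factors, no filter, filterByExpr, the study's rule (fold over 2, adjusted p under 0.2), sex or i5 index as a term, females only, robust estimation, libraries 122 and 137 left out, and each library left out in turn.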

Additional observations from a re-analysis of the deposited data

How the results depend on the processing

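No paired analysis was possible because the labels number mice and groups share no numbers. Of the 35 log2 fold changes named, refitted under 11 other settings, 360 kept direction and side of the threshold, 16 turned, 7 lost a call and 2 gained one, and over the 17 fits without 1 library these were 565, 15, 10 and 5. Of the 9 genes, 0 were called in KO against WT by the fold rule and 0 among females alone, and 0 to 1 without 1 library. In KI against WT 0 were called among females alone. The effects of PFOA over all genotypes that turned were close to 0. Ncor1 was at -0.019 with DESeq2, -0.019 with RLE factors, -0.027 with upper-quartile factors and -0.018 with filterByExpr. Med1 was at -0.0023, -0.00097, -0.011 and -0.00047 in the same order. Rxrb was at 0.033 with the i5 index as a term and 0.053 among females. Without libraries 122 and 137, Ppara was at 0.0087, Rxrb at 0.036, Ppargc1b at 0.032, Med1 at -0.0051, Esrrg at 0.022 and Plin5 at 0.071. Without 1 library, Ppara ranged from -0.18 to 0.012, Rxrb from -0.039 to 0.029, Ncor1 from -0.036 to 0.045 and Med1 from -0.00059 to 0.040. The cause of these changes was not tested.

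Counts over all genes also moved. In KO against WT 517 genes were called, against 928 with DESeq2, 219 with sex as a term, 104 with the i5 index as a term and 88 among females. In KI against WT 265 were called, against 521 with DESeq2, 141 with the i5 index as a term and 51 among females. Without libraries 122 and 137 it was 487. Without 1 library the counts were 327 to 744 and 188 to 456. With upper-quartile factors the median effect of PFOA in KO over all genes was -0.14, against -0.03. For PFOA, DESeq2 called 9 genes in WT and 17 over all genotypes, against 0 and 1, and 377 were called in WT without vehicle library 107, which leaves 1 vehicle library, assumed to vary like the other groups. In KI against KO 0 to 5 were called, against 2. Counts of 30 to 179 limit the precision of Ppara.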
